A study of Homo sapiens and Mus musculus with 18 samples.

Results

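SOX1, PAX6, IRX3, IRX5, OLIG2, NKX6-1, NKX6-2, DBX2 and NEUROG2, 9 transcription factors that pattern the neural tube, were followed at the RNA level through human and mouse gastruloid development. The rows were found by gene identifier in both count tables and paired with symbols through the GENCODE annotation, which gave all 9 genes among the 44910 listed in the human table and all 9 mouse genes of the same names among the 29720 listed in the mouse table. RNA-seq covered 18 libraries in 9 groups, each group in 2 replicates. The human groups were naïve H9 ESCs (chemically reset and kept in PXGL medium, first on irradiated mouse feeders that were removed by passaging), primed ESCs of the lines H9 and RUES2-GLR (both in StemFlex on Geltrex), early RA-gastruloids labelled 24 h and late RA-gastruloids labelled 120 h. All RA-gastruloids sequenced came from the RUES2-GLR line, were induced with retinoic acid (RA) and CHIR99021, a WNT agonist, and were aggregated with CHIR99021 and the ROCK inhibitor Y-27632. Matrigel and further RA were added only after the early libraries had been collected, so the time from early to late cannot be told apart from this treatment. All mouse groups came from the single line E14Tg2a and comprised naïve mESCs (CHIR99021, PD0325901 and LIF on laminin), epiblast-like cells (EpiLCs, made with Activin A and bFGF on fibronectin), and early and late gastruloids. The mouse gastruloids were aggregated from naïve mESCs in N2B27 with a pulse of CHIR99021, and neither RA nor Matrigel is stated for them. Species therefore cannot be told apart from the protocol. No RNA-seq library analysed here came from H9 gastruloids, so a change from H9 to RA-gastruloids would mix cell line with stage, and RUES2-GLR was taken as the human starting point.

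The neural tube is divided along its dorsoventral axis into progenitor domains that express different combinations of transcription factors. Sonic hedgehog from the notochord and floor plate induces ventral factors such as NKX6-1, NKX6-2 and OLIG2, BMP and WNT from the roof plate favour dorsal factors, and RA from the flanking somites promotes neural differentiation and intermediate factors such as PAX6, IRX3 and DBX2. SOX1, a SoxB1 factor, marks neuroectoderm, OLIG2 marks the progenitors of motor neurons, and NEUROG2 is a proneural bHLH factor that drives progenitors towards neurons. None of the genes is confined to the neural tube: PAX6 also acts in eye and pancreas, NKX6-1 in pancreatic beta cells, OLIG2 in oligodendrocytes and the IRX genes in heart and limb.

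Library totals ranged from 3681739 to 38771193 counts in human and from 6487157 to 20052505 counts in mouse. A count of 3 in a library was taken as the floor, which before TMM scaling came to 0.0774 to 0.815 CPM (counts scaled to library size) in human and up to 0.462 CPM in mouse. The shallowest human library was primed RUES2-GLR replicate 2. Early RA-gastruloid replicate 1 stood apart in breadth, with 34354 genes above 0 against 24085 in replicate 2 at a similar total (9984573 and 9499295 counts). Levels below are CPM normalised by TMM within each species, means carry the SD of n = 2, and levels of human and mouse were scaled separately. Folds between small counts carry a 95% exact counting interval, which covers counting error only. Changes were tested by quasi-likelihood in edgeR, p was adjusted by the Benjamini-Hochberg method over the 18300 human or 15003 mouse genes tested, and a gene counted as called where adjusted p was below 0.05 and the log2 change exceeded 1 in size. Of the 9 genes, 8 in human (all but DBX2) and 7 in mouse (all but Olig2 and Neurog2) passed the low-count filter. Pluripotency markers were in place in the ESC groups: POU5F1 had 839 and 850.0 CPM in the naïve libraries, 717 and 712 CPM in the primed H9 libraries and 604 and 623 CPM in those of RUES2-GLR, and 0.388 and 0.612 CPM in late RA-gastruloids.

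The first question was which patterning factors human RA-gastruloids expressed by 120 h. SOX1, PAX6, NEUROG2, IRX3 and IRX5 rose from early to late RA-gastruloids, NKX6-1 and OLIG2 fell, and NKX6-2 did not pass the test. Thus 5 of the 8 tested factors were called higher, where 11.8% of all genes were, and 2 of 8 were called lower, where 13.2% of all genes were. Their median log2 fold change was 3.28, beside 0.00 over all genes. In bulk RNA, fewer cells of a type and less RNA per cell cannot be told apart.

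PAX6 (ENSG00000007372, GRCh38 chromosome 11, 31784779 to 31817961, minus strand), a paired-homeodomain factor of neural progenitors, had 0.192 and 0.303 CPM in early RA-gastruloids and 102 and 98.7 CPM in late ones. The groups were far apart and the late replicates differed little. The ratio was 409 (counting interval 175 to 1261, from 5 early and 3065 late counts), and the fitted log2 fold change was 8.62 (SE 0.28, edgeR adjusted p = 7.11e-22). SOX1 (ENSG00000182968, chromosome 13, 112067149 to 112071706, plus strand) had 0.192 and 0 CPM early and 32.1 and 35.7 CPM late. Only 2 early counts were present, so that the ratio of 338 had an interval of 93.3 to 2795. The fitted log2 fold change of SOX1 was 8.31 (SE 0.37, edgeR adjusted p = 2.40e-18). NEUROG2 (ENSG00000178403, chromosome 4, 112513516 to 112516180, minus strand) had 0.192 and 0.101 CPM early and 27.3 and 22.7 CPM late. With 3 early and 787 late counts its ratio was 175 (59.7 to 851), and the fitted log2 fold change was 7.34 (SE 0.37, edgeR adjusted p = 1.08e-16). In all 3 genes the rise was carried by both late libraries.

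The Iroquois homeobox genes differed from this pattern in where they started. IRX3 (ENSG00000177508, chromosome 16, 54283304 to 54286787, minus strand) was already at 11.1 and 9.89 CPM in early RA-gastruloids and reached 93.5 and 73.8 CPM in late ones. Its ratio was 8.27 (7.19 to 9.55), with a log2 fold change of 3.0 (SE 0.17, edgeR adjusted p = 8.38e-16). IRX5 (ENSG00000176842, chromosome 16, 54930865 to 54934485, plus strand), its neighbour in the same gene cluster, went from 0.288 and 0.807 CPM to 7.61 and 4.99 CPM. This was a ratio of 12.5 (6.84 to 25.4) and a log2 fold change of 3.57 (SE 0.42, edgeR adjusted p = 2.01e-08). For both genes each late library was above each early one.

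The ventral factors went the other way or stayed near the floor. NKX6-1 (ENSG00000163623, chromosome 4, 84491985 to 84499292, minus strand) had 4.32 and 3.03 CPM in early RA-gastruloids (45 and 30 counts) and 0.0485 and 0.204 CPM in late ones (1 and 2 counts). Early exceeded late 37.5-fold (interval 12.3 to 186), and the fitted log2 fold change was -5.11 (SE 0.60, edgeR adjusted p = 1.75e-08). OLIG2 (ENSG00000205927, chromosome 21, 33025935 to 33029196, plus strand) had 9 and 2 counts in early libraries and 0 in both late ones. It passed the low-count filter through primed H9 ESCs, outside this comparison. It was at least 2.36-fold lower late, computed against the floor over the group, with an edgeR adjusted p of 9.55e-04. This call rested on the broad early library, since without early RA-gastruloid replicate 1 the adjusted p was 0.0555, while the other 6 calls held without it. OLIG1 was also at 0 in both late libraries. NKX6-2 (ENSG00000148826, chromosome 10, 132783179 to 132786147, minus strand) had 4 and 5 counts early and 1 and 3 late (log2 fold change -1.68, SE 0.89, edgeR adjusted p = 0.116). DBX2 (ENSG00000185610, chromosome 12, 45014672 to 45051099, minus strand), a factor of intermediate progenitors, had 1 and 0 counts early and 7 and 1 late. At these depths no difference was detectable for either gene.

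**Figure D1:**
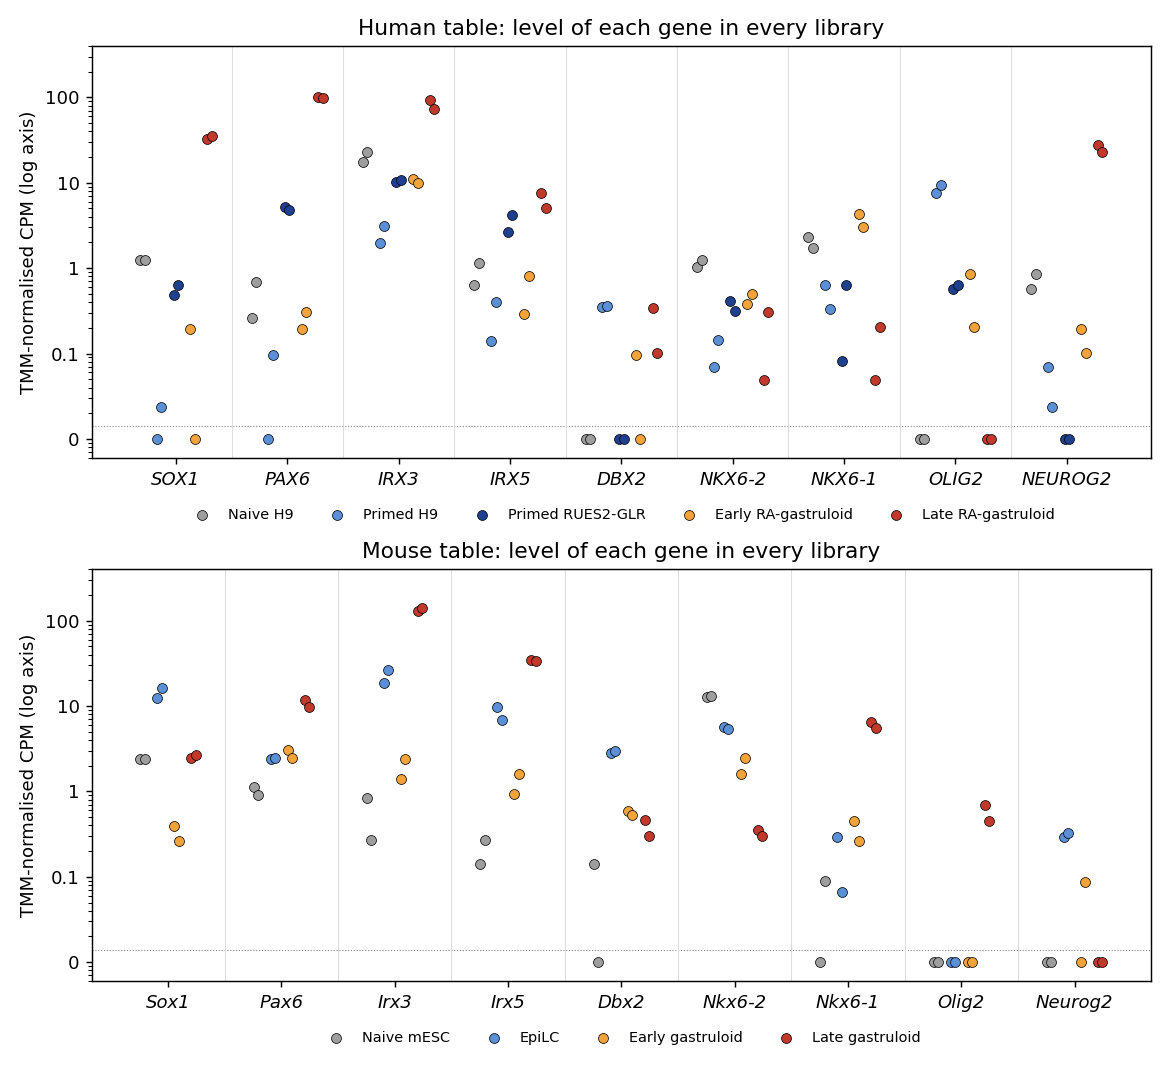
TMM-normalised CPM (log axis, with 0 drawn on a separate line at the bottom) of each gene in every library, human above and mouse below, with 1 point per library coloured by group. SOX1, PAX6 and NEUROG2 stood at 22.7 to 102 CPM in late RA-gastruloids and at or below 5.16 CPM in every other human library, whereas in mouse the highest late levels were those of Irx3 and Irx5.

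Promoters are shown for SOX1 and PAX6, which both rose late, and for NKX6-1, which peaked in early RA-gastruloids. RefSeq sequences (GRCh38.p14) from 250 bases before to 50 bases after the start were found for 4 of the 9 human genes, and PAX6 had 9 starts listed, of which the one at the start of the gene model is printed. IRX3, IRX5, OLIG2, NKX6-2 and DBX2 were not among them. Motifs were searched on both strands, and capitals mark every match. They were the RA receptor half-site AGGTCA (held by 13.8% of 35116 promoters of the same length), the TCF/LEF motif CTTTGA (12.9%), the GLI motif TGGGTGGTC (0.236%), the homeodomain motif TAATTA (4.84%) and the GC box GGGCGG (45.0%). The sequences run 5′ to 3′ on the strand of each gene.
SOX1, chr13:112066899-112067198, plus strand: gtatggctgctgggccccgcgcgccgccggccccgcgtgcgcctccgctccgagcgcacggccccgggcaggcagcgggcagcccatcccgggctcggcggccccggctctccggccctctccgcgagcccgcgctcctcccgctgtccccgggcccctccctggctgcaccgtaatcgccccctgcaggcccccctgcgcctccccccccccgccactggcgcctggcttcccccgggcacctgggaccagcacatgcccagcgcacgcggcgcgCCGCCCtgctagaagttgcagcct
PAX6, chr11:31817912-31818211, minus strand: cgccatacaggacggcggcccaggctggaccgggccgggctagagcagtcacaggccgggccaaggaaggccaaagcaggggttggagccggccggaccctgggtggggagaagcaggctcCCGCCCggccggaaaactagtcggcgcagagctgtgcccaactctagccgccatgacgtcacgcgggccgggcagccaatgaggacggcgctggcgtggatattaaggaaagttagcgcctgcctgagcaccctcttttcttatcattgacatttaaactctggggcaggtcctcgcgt
NKX6-1, chr4:84499243-84499542, minus strand: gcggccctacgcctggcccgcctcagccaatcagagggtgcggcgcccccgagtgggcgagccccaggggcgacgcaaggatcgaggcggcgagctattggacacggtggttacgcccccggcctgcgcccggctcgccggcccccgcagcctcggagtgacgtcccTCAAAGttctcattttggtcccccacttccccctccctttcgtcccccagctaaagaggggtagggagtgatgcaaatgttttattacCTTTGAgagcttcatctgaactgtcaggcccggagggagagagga
The NKX6-1 window held the TCF/LEF letters at 2 places, 83 bases before and 5 bases after the start, in opposite orientations, and the SOX1 and PAX6 windows each held a single GC box read on the opposite strand. No other motif searched was present in these 3 windows or in that of NEUROG2. GC content was 80.0% for SOX1, 64.7% for PAX6 and 65.0% for NKX6-1, with 37, 24 and 24 CpG dinucleotides against a median of 14 over all promoters. A match describes the sequence and was not tested for function.

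Compared per length, as TPM (counts scaled to gene length and library size) on the merged exon length of each gene, IRX3 was the most abundant of the 9 in late RA-gastruloids at 126 and 102 TPM. NEUROG2 followed at 47.1 and 40.3 TPM, SOX1 at 27.9 and 31.9 TPM, PAX6 at 19.5 and 19.5 TPM and IRX5 at 10.6 and 7.16 TPM. These 5 did not overlap between neighbours. DBX2, NKX6-2 and NKX6-1 lay between 0.0487 and 0.478 TPM with overlapping replicates, and OLIG2 was 0. The place of PAX6 depended on the length used. Its merged exons span 20639 bases and its canonical transcript 2743 bases. With canonical lengths put in for the 9 genes alone, PAX6 came first, at 146 and 147 against 141 and 115 for IRX3. All other genes kept their merged lengths in these values, so they compare the 9 genes with one another and are not levels in TPM. PAX6 may also lose reads, since 26.3% of its exon bases overlap ELP4 or PAUPAR on the opposite strand. Counting took no account of strand and, at default settings, left out reads that overlap more than 1 gene. Such overlap was 10.9% for NKX6-2 (INPP5A), 7.09% for DBX2 (DBX2-AS1), 4.01% for NEUROG2 (NEUROG2-AS1) and 0 for SOX1, IRX5, OLIG2 and NKX6-1. In mouse it was 12.9% for Nkx6-2 (Inpp5a) and 4.6% for Irx3 (Irx3os).

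**Figure D2:**
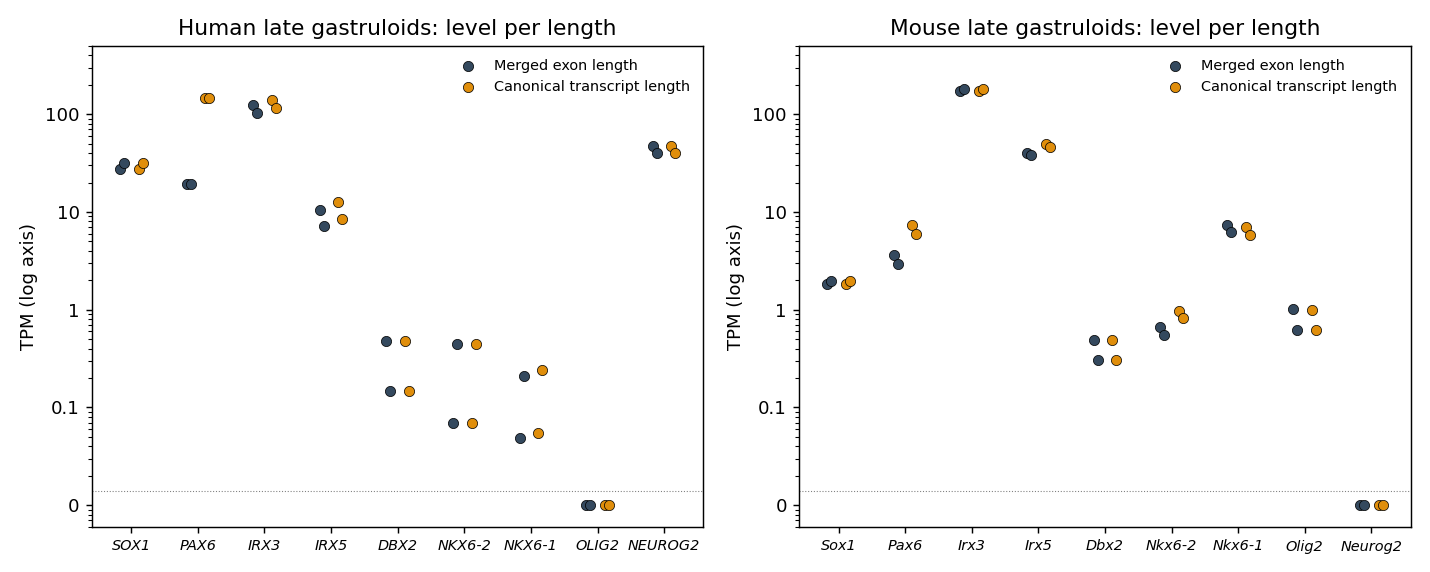
TPM (log axis, with 0 on a separate line at the bottom) of each gene in late human and mouse gastruloids, 1 point per replicate, with merged exon lengths and canonical transcript lengths side by side. IRX3 led in both species on merged lengths, and PAX6 moved from 19.5 to 146 TPM in human when the canonical length was used.

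The surrounding dorsoventral programme in late RA-gastruloids was read from lists of genes. Of 17 dorsal and roof plate factors, 13 were tested and 12 rose from early to late, with none lower and a median log2 fold change of 5.36. MSX1, a BMP target, reached 302 ± 33.1 CPM (log2 fold change 1.22), PAX3, a dorsal progenitor factor, 254 ± 7.02 CPM (3.67), OLIG3, a factor of the dorsal-most progenitors, 199.9 ± 18.7 CPM, and WNT1, a roof plate ligand, 68.7 ± 10.1 CPM (7.61). OLIG3 had 0.0961 and 0 CPM in the early libraries. Of 13 further intermediate and ventral factors, 9 were tested, 3 rose and 2 fell, and the median was 0.53. The 3 that rose were the Iroquois genes IRX1 (45.9 ± 15.5 CPM late) and IRX2 (49.4 ± 6.06 CPM late) and the intermediate factor DBX1, which remained below 1 CPM (0.970 and 0.815 CPM late). NKX2-2, a factor of the ventral-most neuronal progenitors, and OLIG1 had no counts in either late library, and FOXA2, a floor plate factor, was 0.124 ± 0.0308 CPM.

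Of 15 Hedgehog pathway genes, 13 were tested, 7 rose and 3 fell. GAS1, a Hedgehog co-receptor, rose to 583 ± 41.8 CPM (log2 fold change 5.31), GLI3, a transcriptional effector that acts largely as a repressor, to 302 ± 22.6 CPM (2.41) and HHIP, an antagonist induced by the pathway, to 40.0 ± 0.1 CPM (5.95). Of other genes the pathway induces, GLI1 went from 10.7 ± 1.21 to 1.69 ± 0.0596 CPM (log2 fold change -2.66) and PTCH1, the receptor, from 211 ± 12.4 to 77.3 ± 7.01 CPM (-1.45). The ligand SHH had 0.194 and 0 CPM late. Of 12 neural progenitor genes, all were tested, 7 rose and 1 (SP8) fell, with a median of 1.04. NES, an intermediate filament of progenitors, was 782 ± 90.7 CPM late (log2 fold change 0.83, not called), SOX2 rose to 321 ± 5.36 CPM (1.79), SOX21 to 2.91 ± 0.208 CPM (5.66) and POU3F3 to 4.06 ± 0.319 CPM (5.24). CDH2 was 353 ± 5.07 CPM early and 348 ± 8.7 CPM late, and did not pass the test.

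Of 24 genes of post-mitotic neurons, 18 were tested, 6 rose and 6 fell, with a median of -0.16. DCX, a microtubule protein of young neurons, rose to 44.9 ± 6.68 CPM (log2 fold change 4.77), SIM1, a factor of ventral interneurons, to 27.6 ± 6.38 CPM (7.45), and POU4F1, a factor of sensory neurons and dorsal interneurons, from 0 in both early libraries to 41.1 and 38.9 CPM. EVX1, which also marks the primitive streak, fell from 33.7 ± 0.195 to 0.298 ± 0.0105 CPM. Of 14 RA and FGF pathway genes, 6 rose and 5 fell (median -0.29): DUSP6, an FGF-induced phosphatase, rose to 201 ± 8.77 CPM (log2 fold change 1.0025), ALDH1A2, the RA-synthesising enzyme, rose to 117 ± 1.44 CPM (1.71), and the ligands FGF17 (-7.15) and FGF4 fell. Forebrain and midbrain factors were nearly absent from late RA-gastruloids, with a summed level over 12 genes of 1.45 and 1.94 CPM. Of these, 11 were tested, none rose and OTX2 (-3.19) and RAX (-3.12) fell. HESX1 (0.427 ± 0.261 CPM) and EN2 (0.325 ± 0.117 CPM) did not pass the test.

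Markers of other cell types also changed between the early and late libraries. All 6 markers of neuromesodermal progenitors and primitive streak fell, with a median log2 fold change of -3.37 and a summed level of 1108 and 1138 CPM early against 155 and 130 CPM late. TBX6, the most abundant of them early, went from 357 and 385 CPM to 1.70 and 0.612 CPM (log2 fold change -8.12), TBXT, the streak factor Brachyury, changed by -6.57, and CDX1, the most abundant late at 111 and 86.9 CPM, by -1.31. Of 6 pluripotency markers 4 fell, POU5F1 (-9.05), TDGF1 (-8.14), NANOG (-5.01) and LIN28A (-2.28), and their summed level went from 1103 and 1077 CPM to 228 and 229 CPM, most of it LIN28A, with NANOG and TDGF1 at 0 late. The part of these markers' cells in the fall of NKX6-1 was not tested. Of the oligodendrocyte lineage genes PDGFRA fell from 150.2 and 147 CPM to 44.1 and 47.6 CPM and CSPG4 from 12.0 and 9.69 CPM to 4.80 and 4.79 CPM, while SOX10, MBP and OLIG1 were not called. Of 6 tested somite markers 4 rose and 1, PAX9, fell from 1.06 and 0.606 CPM to 0.291 and 0.204 CPM, with MEOX1 at 92.7 and 72.0 CPM, FOXC2 (not called) at 51.3 and 49.5 CPM and a summed level over 8 genes of 218 and 178 CPM in late replicates, against 43.3 and 37.1 CPM early. Of 7 neural crest markers 3 rose and 1 fell, led by ETS1 at 64.8 and 78.0 CPM. SNAI2 fell, FOXD3 (0 early, 14.8 and 14.7 CPM late) and TFAP2B rose, and the summed level was 207 and 204 CPM early and 133 and 149 CPM late. Over 5 endothelial genes the summed level was 27.8 and 28.9 CPM early and 71.1 and 59.5 CPM late (KDR at 54.4 and 45.5 CPM, with CDH5 and PECAM1 also called higher and TEK and TIE1 not called). Over 6 cardiac genes, of which 3 were tested and GATA4 and MYL7 fell, it was 29.9 and 30.5 CPM early and 17.1 and 13.4 CPM late, nearly all of it ACTC1 and with NKX2-5, MYL7 and GATA4 at or near 0. Over the 6 endoderm genes the sum was 304 and 297 CPM early and 3.10 and 2.65 CPM late, with falls of CLDN6 (log2 fold change -7.53) and SOX17 (-4.91). Most of the early sum was CLDN6, at 280 and 272 CPM. CLDN6 was higher still in primed RUES2-GLR ESCs, at 2716 and 3170 CPM, so its fall was not particular to endoderm. The eye list, with MITF, RAX, CRX and SIX6, summed to 0.436 and 0.815 CPM late, nearly all of it MITF (0.388 and 0.815 CPM), which stood above the floor in both libraries, and the pancreas list to 0.0485 and 0.204 CPM, with INS, GCG and NKX2-2 at 0. Both tissues express PAX6, and their part in its level was not tested. The share of the somite and crest cells in the levels of IRX3 and IRX5 was not tested.

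**Figure D3:**
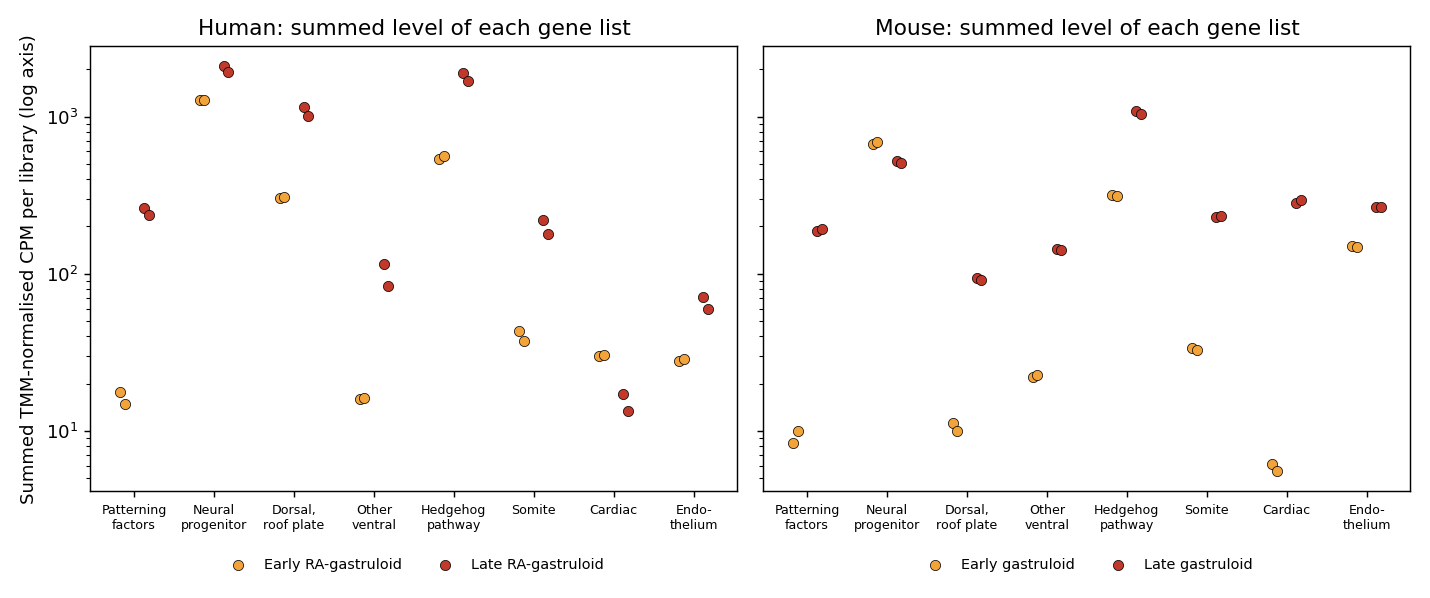
Summed TMM-normalised CPM (log axis) of each gene list in each early and late library, human on the left and mouse on the right, 1 point per library. In human the dorsal and roof plate list stood at 1152 and 1001 CPM late, and in mouse the cardiac list rose from 6.12 and 5.54 to 282 and 294 CPM. Lists differ in their number of genes, and the species were scaled separately.

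The second question was where the factors stood before the late stage. Between the RUES2-GLR ESCs and the early RA-gastruloids made from them, 4 of the 8 tested factors were called, 1 higher and 3 lower, where 29.6% of all genes were called in either direction. NKX6-1 was the one that rose, from 1 and 2 counts (0.0819 and 0.637 CPM) to 45 and 30 counts (4.32 and 3.03 CPM). The ratio was 18.9 (6.22 to 93.7), with a log2 fold change of 4.16 (SE 0.66, edgeR adjusted p = 2.41e-06). All 6 tested markers of neuromesodermal progenitors and primitive streak rose in the same step, among them TBX6 (357 and 385 CPM early), CDX2 (254 and 261 CPM), CDX1 and TBXT (124 and 128 CPM), and their summed level went from 8.11 and 7.33 CPM to 1108 and 1138 CPM. Their part in the NKX6-1 level was not tested. Of 6 pancreas markers only NEUROG3 stood above the floor in both early libraries (1.06 and 1.11 CPM), and PDX1 had 0.288 and 0.101 CPM.

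PAX6 was at 5.16 and 4.78 CPM in primed RUES2-GLR ESCs and fell to 0.192 and 0.303 CPM in early RA-gastruloids (log2 fold change -4.32, SE 0.46, edgeR adjusted p = 1.83e-09) before its later rise. IRX5 fell likewise, from 2.62 and 4.14 CPM to 0.288 and 0.807 CPM (log2 fold change -2.45, SE 0.53, edgeR adjusted p = 2.09e-04). SOX1 fell from 0.491 and 0.637 CPM to 0.192 and 0 CPM, a ratio of 5.29 (interval 1.06 to 51.2) over 8 and 2 counts. This last call was fragile: the edgeR adjusted p was 0.0403, the DESeq2 adjusted p was 0.0689, and it was lost when either RUES2-GLR library or early RA-gastruloid replicate 2 was left out (edgeR adjusted p of 0.158, 0.0682 and 0.268). IRX3 was not called, at 10.3 and 10.8 CPM in the ESCs and 11.1 and 9.89 CPM early, a ratio of 1.01 (0.820 to 1.25). This depended on the scale: as TPM on merged exon lengths, IRX3 was 7.70 and 7.79 in the ESCs and 14.8 and 13.2 early. The difference in TPM was not tested. OLIG2, NKX6-2 and NEUROG2 were not called in this step, with edgeR adjusted p of 0.911, 0.878 and 0.119. Forebrain and midbrain factors fell at the same time, 9 of 11 tested, and their summed level went to 6.44 and 4.95 CPM in early RA-gastruloids.

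Over the whole human course, from primed RUES2-GLR ESCs to late RA-gastruloids, 6 of 8 tested factors were called, 5 higher and 1 lower, where 38.3% of all genes were called in either direction. PAX6 rose 19.8-fold (counting interval 15.8 to 25.1), IRX3 8.36-fold (7.12 to 9.87), SOX1 63.9-fold (32.3 to 148) and NEUROG2 at least 41.7-fold, since it had no counts in either RUES2-GLR library. IRX5 changed least, 2.31-fold (1.67 to 3.26), and its fitted log2 fold change of 1.12 was not called with DESeq2 (0.87, DESeq2 adjusted p = 0.152), with upper quartile scaling (0.99) or with only the compared groups (0.99). It was also lost without RUES2-GLR replicate 1 (edgeR adjusted p = 0.387) or without late RA-gastruloid replicate 1 (0.139). OLIG2, with 7 and 2 counts in the ESCs and none late, was at least 2.68-fold lower. NKX6-1 was at or under the floor at both ends.

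From naïve to primed H9 ESCs all 8 tested factors were called, 7 lower and 1 higher, where 47.8% of all genes were called. IRX3 fell from 17.4 and 22.9 CPM to 1.96 and 3.12 CPM (log2 fold change -2.87, SE 0.19, edgeR adjusted p = 8.02e-15), and was the only factor above 3 CPM in naïve cells. SOX1 (1.25 and 1.26 CPM in naïve cells, 0 and 1 counts in primed cells), NKX6-1 (2.30 and 1.72 CPM to 0.629 and 0.334 CPM), NKX6-2 (1.05 and 1.26 CPM to 0.0699 and 0.143 CPM) and NEUROG2 (0.575 and 0.860 CPM to 1 count in each library) also fell. The calls of PAX6 and IRX5, both below 1.2 CPM, were lost without naïve H9 replicate 2 (edgeR adjusted p of 0.0707 and 0.185).

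OLIG2 was the exception. It had no counts in either naïve H9 library and 7.55 and 9.34 CPM in primed H9 ESCs, at least 51.4-fold higher (edgeR adjusted p = 1.53e-14). These were its highest levels in any human library, and no other human library exceeded 0.865 CPM. Its chromosome 21 neighbour and paralog OLIG1 had 2.66 and 2.86 CPM in the same cells. In primed RUES2-GLR ESCs OLIG2 had 0.573 and 0.637 CPM. OLIG2 and OLIG1 were both 0 in late RA-gastruloids.

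Between the primed lines, 5 of 8 factors were called from H9 to RUES2-GLR, 4 higher and 1 lower, where 29.3% of all genes were called and the median over all genes was -0.12. PAX6 was 0 and 0.0953 CPM in H9 and 5.16 and 4.78 CPM in RUES2-GLR, a ratio of 71.5 (26.8 to 269) and a log2 fold change of 6.01 (SE 0.44, edgeR adjusted p = 6.84e-13). Levels in RUES2-GLR were higher 3.69-fold (2.94 to 4.62) for IRX3, 8.68-fold (4.98 to 15.7) for IRX5 and 29.3-fold (3.93 to 1301, from 1 and 8 counts) for SOX1, and OLIG2 was 15.2-fold lower (7.92 to 33.3). As TPM, IRX3 differed less, at 2.93 and 4.62 in H9 and 7.70 and 7.79 in RUES2-GLR. All 5 calls held under each normalisation. The SOX1 call rested on 0 and 1 counts in H9 and 6 and 2 in RUES2-GLR, and SOX1 passed the low-count filter through groups outside this comparison. The share of all calls that were higher in RUES2-GLR was 58.4% with TMM, 68.7% with DESeq2 size factors and 71.2% with upper quartile scaling. With TMM and the adjusted p alone it was 42.8%. Of 11 tested forebrain and midbrain factors 9 were higher in RUES2-GLR and none lower, among them LHX5 (97.5 and 85.7 CPM against 0.28 and 0.143 CPM in H9), OTX2 (162 and 146 CPM against 43.8 and 40.4 CPM), SIX3 (22.3 and 17.2 CPM, none in H9) and HESX1. Of the 12 listed, 9 stood above the floor in both RUES2-GLR libraries, OTX2 was the most abundant, EN2 and NKX2-1 were at 0, and the sum was 331 and 288 CPM against 51.5 and 47.7 CPM in H9. Their part in the PAX6 level was not tested. Pluripotency markers did not separate the lines, with 0 of 6 called.

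In mouse, Irx3, Irx5, Nkx6-1, Sox1 and Pax6 rose from early to late gastruloids and Nkx6-2 fell. Thus 5 of 7 tested factors were called higher, where 20.1% of all genes were, and 1 was called lower, where 19.1% of all genes were. The median was 2.84, beside -0.03 over all genes. Irx3 (ENSMUSG00000031734, GRCm39 chromosome 8, 92525153 to 92528695, minus strand) had 1.38 and 2.37 CPM early and 130.05 and 141 CPM late, a ratio of 77.6 (59.4 to 103) and a log2 fold change of 6.27 (SE 0.14, edgeR adjusted p = 3.63e-42). Irx5 (ENSMUSG00000031737, chromosome 8, 93084253 to 93102914, plus strand) had 0.938 and 1.58 CPM early and 34.8 and 33.4 CPM late, a ratio of 29.2 (20.9 to 41.9) and a log2 fold change of 4.85 (SE 0.20, edgeR adjusted p = 2.66e-29). Both reached their highest levels in late gastruloids.

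Nkx6-1 (ENSMUSG00000035187, chromosome 5, 101806005 to 101812862, minus strand), rose from 0.444 and 0.264 CPM to 6.42 and 5.51 CPM, a ratio of 15.9 (8.66 to 31.8) and a log2 fold change of 3.95 (SE 0.42, edgeR adjusted p = 1.51e-12). Pax6 (ENSMUSG00000027168, chromosome 2, 105499245 to 105527709, plus strand) rose 3.82-fold (2.94 to 4.99), to 11.8 and 9.68 CPM. Sox1 (ENSMUSG00000096014, chromosome 8, 12445295 to 12450126, plus strand) rose from 0.395 and 0.264 CPM to 2.45 and 2.68 CPM, a ratio of 7.34 (3.68 to 15.9). This was close to its level in naïve mESCs (2.37 and 2.42 CPM, log2 fold change from naïve to late 0.09, SE 0.35, edgeR adjusted p = 0.824). Nkx6-2 (ENSMUSG00000041309, chromosome 7, 139159292 to 139162713, minus strand) fell from 1.58 and 2.46 CPM to 0.350 and 0.298 CPM, 5.80-fold lower (2.35 to 18.5).

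Dbx2 (ENSMUSG00000045608, chromosome 15, 95521444 to 95553841, minus strand) had 0.593 and 0.528 CPM early and 0.467 and 0.298 CPM late and did not pass the test (edgeR adjusted p = 0.518). Olig2 (ENSMUSG00000039830, chromosome 16, 91022345 to 91025565, plus strand) had 6 and 3 counts in late gastruloids and none in any other mouse library, at least 2.78-fold higher than early, and was too low to be tested. Neurog2 (ENSMUSG00000027967, chromosome 3, 127426784 to 127429280, plus strand) had no counts in the late libraries and 0 and 1 early. In the late libraries 3 counts corresponded to 0.362 and 0.462 CPM before TMM scaling. Per length, Irx3 led with 171 and 181 TPM, followed by Irx5 (40.4 and 37.9 TPM), Nkx6-1 (7.44 and 6.23 TPM), Pax6 (3.66 and 2.94 TPM) and Sox1 (1.84 and 1.97 TPM). Olig2 and Nkx6-2 overlapped between 0.554 and 1.01 TPM. With canonical lengths Pax6 (7.37 and 5.91 TPM) and Nkx6-1 (6.96 and 5.83 TPM) overlapped as well.

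Among the other mouse genes, 12 of 14 tested Hedgehog pathway genes rose from early to late, with none lower and a median of 2.08. Shh rose to 19.5 ± 0.367 CPM from 0.0494 and 0 CPM early, Ihh to 12.4 ± 0.554 CPM, Smo, the signal transducer, to 263 ± 8.36 CPM, Ptch1 to 232 ± 19.6 CPM and Gli1 to 37.0 ± 1.53 CPM. Of 13 further intermediate and ventral factors, 6 were tested, 3 rose and 2 fell: Irx1 rose to 74.6 ± 0.826 CPM, Irx2 to 37.9 ± 0.482 CPM and Foxa2, which also marks endoderm, to 25.6 ± 0.0485 CPM, whereas Nkx2-9 and Foxn4 fell. Of 15 dorsal factors in the table only 5 were tested, 4 rose and 1 (Gsx1) fell. They included Msx1 at 59.8 ± 2.71 CPM, Msx2 at 22.1 ± 1.38 CPM and Pax3 at 3.10 ± 0.253 CPM. Of 12 neural progenitor genes 8 were tested, 3 rose and 3 fell: Cdh2 (log2 fold change 4.14) and Msi1 (2.65) rose, and Sox2, which is also a pluripotency factor, fell from 459 ± 12.8 to 66.7 ± 7.55 CPM (-2.77). Hes5, a Notch target of neural progenitors, was 0.266 ± 0.0455 CPM and Pou3f2 0.531 ± 0.0910 CPM in late gastruloids. Of 24 neuronal genes 17 were tested, 9 rose and 6 fell, led by Lhx1 (37.5 ± 2.84 CPM), Isl1 (23.0 ± 1.15 CPM) and Lbx1 (4.65 ± 0.684 CPM). Of 13 tested RA and FGF genes 6 rose and 3 fell, with Aldh1a2 (145 ± 9.38 CPM), Rarb and Cyp26a1 among those higher and Dusp6 not called. Of 6 tested forebrain and midbrain genes 4 rose and 2 fell, with Otx2 lower (24.9 ± 1.37 CPM) and Dmbx1 higher (3.03 ± 0.982 CPM).

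Markers of other mouse cell types changed as well. Of 6 pluripotency markers 5 fell from early to late, with a median log2 fold change of -3.31 and a summed level of 2747 and 2770.2 CPM early against 611 and 604 CPM late. Pou5f1, the most abundant of them early, fell from 937 and 909.7 CPM to 87.1 and 84.0 CPM (log2 fold change -3.43), Cripto changed by -4.05 and Nanog by -3.19, and Lin28a, the most abundant late at 388 and 389.9 CPM, was not called. Of 5 tested markers of neuromesodermal progenitors and primitive streak 4 fell and 1, Cdx2 (1.23), rose, with T, the mouse Brachyury gene, going from 213 and 212 CPM to 12.0 and 13.7 CPM and the sum over the list from 267 and 267 CPM to 29.9 and 31.1 CPM. The part of these cells in the fall of Sox2 was not tested. All 6 cardiac markers rose, led by Gata4 (113 and 111 CPM) and Hand2 (96.4 and 106 CPM), with Tnnt2 also called. Of 6 tested somite markers 5 rose and 1, Tcf15, fell from 31.6 and 31.6 CPM to 11.8 and 12.5 CPM, with Meox1 at 140.0 and 135 CPM and Foxc2 at 69.5 and 78.2 CPM. Of 5 endothelial markers 3 rose, Kdr (135 and 129 CPM), Cdh5 and Tie1, and Pecam1, the most abundant early, fell from 128 and 125 CPM to 29.3 and 30.2 CPM. Of the endoderm markers 5 of 6 rose, including Foxa1, Ttr and Apoa1, with Cldn6 the most abundant (177 and 176 CPM) but not called. The summed levels in late libraries were 282 and 294 CPM for the cardiac list, 228 and 233 CPM for the somite list, 266 and 266 CPM for the endothelial list and 295 and 299.6 CPM for the endoderm list, against 187 and 193 CPM for the 9 patterning factors. In the early libraries they were 6.12 and 5.54 CPM for the cardiac list, 33.8 and 32.8 CPM for the somite list, 149 and 147 CPM for the endothelial list and 134 and 129 CPM for the endoderm list. Of 5 tested crest markers 3 rose (Ets1, Snai2 and Sox9) and Foxd3 fell, with a summed level of 29.4 and 29.4 CPM early and 153 and 146 CPM late. In the oligodendrocyte list Pdgfra, which is also a mesoderm gene, made up nearly all of 270.0 and 267 CPM, Mbp was not called, and Olig1 had 0.350 and 0.149 CPM. The pancreas genes in the table, with Nkx2-2 at 0.233 and 0.149 CPM and Ins2 at 0.149 CPM in 1 library, summed to 0.233 and 0.447 CPM, and the eye genes, where Mitf fell, to 1.17 and 0.745 CPM. The part of these tissues in the levels of Irx3, Irx5 and Nkx6-1 was not tested.

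Before the late stage, Sox1, Irx3, Irx5 and Dbx2 were higher in EpiLCs than in naïve mESCs or early gastruloids, the latter being made from naïve mESCs and not from EpiLCs. From naïve mESCs to EpiLCs 6 of 7 tested factors were called, 5 higher and 1 lower, where 29.8% of all genes were called. Irx3 rose from 0.837 and 0.269 CPM to 18.6 and 26.6 CPM (ratio 49.2, 25.7 to 108), Irx5 from 0.14 and 0.269 CPM to 9.76 and 6.91 CPM (35.6, 13.7 to 132) and Sox1 from 2.37 and 2.42 CPM to 12.6 and 16.1 CPM (6.25, 4.56 to 8.77). Dbx2 rose from 1 and 0 counts to 2.81 and 2.96 CPM, its highest level in either species (53.4, 9.24 to 2140). Pax6 rose 2.46-fold (1.42 to 4.45), a call lost without naïve mESC replicate 2 (edgeR adjusted p = 0.0739). Nkx6-2 was highest in naïve mESCs, at 12.8 and 13.1 CPM, and fell to 5.62 and 5.40 CPM in EpiLCs.

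Between EpiLCs and early gastruloids 5 of 7 were called, all lower, where 20.9% of all genes were called in either direction. Sox1 was 43.2-fold lower in early gastruloids (23.8 to 87.4), Irx3 13.9-fold (10.5 to 18.7), Irx5 6.65-fold (4.64 to 9.77), Dbx2 5.12-fold (2.996 to 9.18) and Nkx6-2 2.88-fold (2.10 to 3.99), while Pax6 (edgeR adjusted p = 0.502) and Nkx6-1 (0.179) were not called. All 5 tested markers of neuromesodermal progenitors and primitive streak were higher in early gastruloids than in EpiLCs (median log2 fold change 3.66). The sum over that list was 7.98 and 6.12 CPM in EpiLCs and 267 and 267 CPM in early gastruloids. The part of these cells in the lower factor levels was not tested. From naïve mESCs to early gastruloids, which were their direct descendants, 6 of 7 were called, 4 higher and 2 lower, where 23.0% of all genes were called. Pax6 (2.90-fold, 1.73 to 5.11), Irx3 (3.54-fold, 1.74 to 8.15), Irx5 (5.36-fold, 1.92 to 20.7) and Dbx2 (10.4-fold, 1.65 to 434) rose, and Sox1 (6.91-fold lower, 3.51 to 14.8) and Nkx6-2 (6.85-fold lower, 5.14 to 9.25) fell. The calls of Irx3 and Dbx2 were lost without naïve mESC replicate 2 (edgeR adjusted p of 0.176 and 0.1996). From naïve mESCs to late gastruloids 5 of 7 were called, 4 higher and 1 lower, where 44.8% of all genes were called. Irx3 rose 275-fold (144 to 601), Irx5 156-fold (60.7 to 576), Nkx6-1 110-fold (19.3 to 4402, from 1 and 92 counts) and Pax6 11.1-fold (6.78 to 19.1), and Nkx6-2 was 39.7-fold lower (16.8 to 123). These mouse comparisons share their groups with one another and are given side by side only.

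The changes from early to late were then compared between species in a single model over the 13990 genes, of 15371 matched by symbol, that passed the low-count filter over both species together, of which 35.0% were called. Of the 6 factors tested in each species by itself the difference of the human from the mouse change was called for 4, where 36.7% of the 11994 genes tested in each species were called. The early to late change was larger in human for PAX6 (difference of 6.69 on the log2 scale, SE 0.44, edgeR adjusted p = 7.75e-15) and SOX1 (5.45, SE 0.91, edgeR adjusted p = 4.66e-06). It was larger in mouse for IRX3 (difference of -3.27, SE 0.31, edgeR adjusted p = 4.92e-11). NKX6-1 moved in opposite directions, lower in human and higher in mouse (difference of -9.05, SE 0.72, edgeR adjusted p = 1.17e-12). OLIG2, NEUROG2 and DBX2 were each untested in 1 species and passed the joint filter through the groups in which they had counts. For OLIG2 and NEUROG2 a difference was called, but its fitted size rests on libraries with few or no counts: OLIG2 had 9 and 2 counts early and none late in human and none early and 6 and 3 late in mouse, and NEUROG2 had 1 mouse count in all 4 gastruloid libraries. The NEUROG2 difference was not called without mouse early replicate 2 (edgeR adjusted p = 1.00). For IRX5 (-1.26, SE 0.69, edgeR adjusted p = 0.116), NKX6-2 (0.84, SE 1.21, edgeR adjusted p = 0.571) and DBX2 (2.74, SE 1.499, edgeR adjusted p = 0.119) no difference was called. For IRX5 it was called when early or late RA-gastruloid replicate 1 was left out (edgeR adjusted p of 0.0496 and 0.0405).

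**Figure D4:**
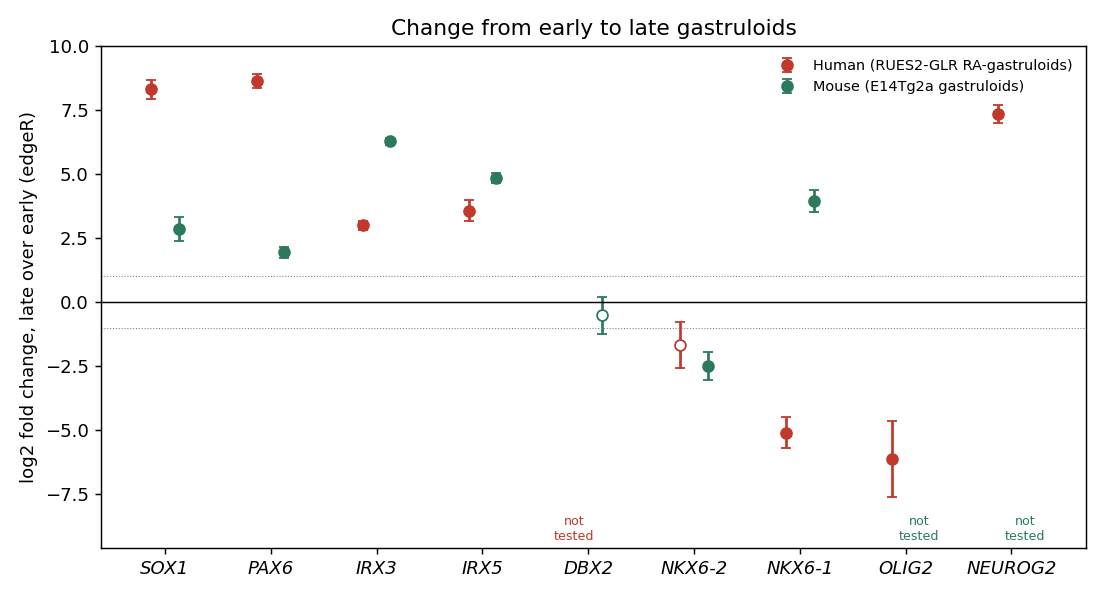
Fitted log2 fold change from early to late gastruloids (points) with its standard error (bars) for each factor in human and mouse. Filled points were called, open points were tested and not called, and dotted lines mark a log2 fold change of 1 and -1. PAX6 and SOX1 rose more in human and IRX3 more in mouse, and NKX6-1 had opposite signs, at -5.11 in human and 3.95 in mouse. The human OLIG2 value was fitted against a late group with no counts, and its size depends on the prior count.

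As a description of pattern, the genes most like each factor whose mean reached 1 CPM in some group (all but DBX2 in human, and all but Olig2 and Neurog2 in mouse) were taken by Pearson's r of log2 CPM across the libraries of a species, among 13375 human or 12069 mouse genes whose mean reached 5 CPM in some group. Across 10 human libraries SOX1 was most like OLIG3 (r = 0.994), PAX6 most like the guidance gene NTN1 (0.993) and WNT1 (0.979), NEUROG2 most like NR2F1 (0.989), UNCX (0.989) and ZIC4 (0.984), and IRX5 most like IRX1 (0.973). IRX3 was most like MXRA8 (0.992), OLIG2 most like GULP1 (0.982), NKX6-2 most like RFK (0.964) and NKX6-1 most like SNAPC3 (0.926), the lowest leading value. Across 8 mouse libraries Sox1 was most like Arl4d (0.992), Pax6 most like Aff2 (0.995), Irx3 most like Gm56714 (0.997), Irx5 most like Hycc1 (0.998), Nkx6-1 most like Galc (0.996), Nkx6-2 most like Utp6 (0.999) and Dbx2 most like Ssx2ip (0.992). Among the factors themselves, human SOX1 and PAX6 had r = 0.900 and mouse Sox1 and Pax6 r = -0.04, while Irx3 and Irx5 had r = 0.785 in human and 0.981 in mouse. These libraries fall into a few stage groups, so a high r mostly says that stage means follow the same order.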

How the data were processed

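RNA-seq was available for 18 samples, 10 human and 8 mouse, as 1 table per species. Per the labels and the study's methods, poly(A) libraries were sequenced on an Illumina NextSeq, demultiplexed with bcl2fastq 2.20, trimmed with Trimmomatic 0.39 and aligned with STAR to GRCh38 or GRCm39. The values are counts per gene, which the authors made with featureCounts at its default settings. These take no account of strand and leave out reads that map to several places or overlap several genes. They were deposited unnormalised. The annotation release is not given in the sources used here. Cultures were in duplicate. The replicates of a stage shared an experimental batch, as did all gastruloid samples according to the study, and whether ESC groups shared it is not given in the sources used here. The p-values measure only the spread between these replicates.

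Symbols were assigned by gene identifier from GENCODE 44 (44876 of 44910 human genes) and M39 (29486 of 29720 mouse genes). Counts were filtered with filterByExpr, normalised by TMM and tested in edgeR 4.0.16 (R 4.3.3) by the quasi-likelihood F-test, all groups of a species sharing 1 fit. Species were compared by an interaction term in a joint fit of all 9 groups, over genes that passed filterByExpr in the joined table. The biological coefficient of variation was 8.18% in human and 4.30% in mouse. TPM used merged exon lengths. As an alternative chosen after seeing the data, the TPM of the 9 factors were rescaled to canonical transcript lengths, with all other genes left on merged lengths. On simulated counts, 198 of 200 genes changed 4-fold were recovered with 4 false calls for human early to late (17004 genes), and 197 of 200 with 3 false calls for mouse early to late (14256 genes). The changed genes were drawn from those with higher mean counts, and all other genes were left unchanged. The simulation therefore does not cover factors near the floor.

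The factors and gene lists were chosen with earlier results of these data known. From each list the text names the 2 genes most abundant in late gastruloids and the 2 with the largest called change from early to late, and other genes were named after their values were seen. Some genes of these lists are not reported here. Of the 3 genes most like each factor that reached 1 CPM in some group, at least the first is named. Alternatives were no low-count filter, DESeq2 size factors, upper quartile scaling, DESeq2 1.42.0, the adjusted p alone, only the compared groups, a replicate block, and each library left out in turn.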

Additional observations from a re-analysis of the deposited data

Results flagged for a closer look

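The change from early to late gastruloids differed between human and mouse for 4 of the 6 factors tested in each species, by the interaction test (human minus mouse, on the log2 scale). Of all 11994 genes tested in each species, 36.7% were called. The difference was 6.69 for PAX6, which rose in both species, and 5.45 for SOX1, which also rose in both. It was -3.27 for IRX3, which rose in both species and more in mouse. For NKX6-1 it was -9.05, with a fall in human and a rise in mouse. OLIG2 and NEUROG2 are not among these, since each was untested in 1 species. The fitted difference was -11.94 for OLIG2 and 9.49 for NEUROG2, both against groups with few or no counts, and that of NEUROG2 was not called without mouse early replicate 2 (7.33, edgeR adjusted p = 1.00). Species differed together with cell line and protocol, including the RA given to the human gastruloids, so these cannot be told apart.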

How the results depend on the processing

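The count of factors called stayed within 1.5 times its main value in all 124 recomputations, and no fold change reversed. Over all alternatives it ranged from 6 to 7 for human early to late, 6 to 9 for naïve to primed H9, 4 to 6 for H9 to RUES2-GLR, 3 to 4 for RUES2-GLR to early, 4 to 6 for RUES2-GLR to late, 6 to 7 for mouse early to late, 5 to 6 for naïve mESCs to EpiLCs, 4 to 7 for naïve mESCs to early gastruloids, 5 to 6 for naïve mESCs to late gastruloids, and 5 to 7 for the species difference (OLIG2, NEUROG2 and DBX2, each untested in 1 species, counted where called), and was 5 throughout for EpiLCs to early gastruloids. Of 805 recomputed fold changes of single factors, 18 lost their call, 12 of them with a library left out, and 3 gained one. Nkx6-1 from naïve mESCs to early gastruloids was called with upper quartile scaling (edgeR adjusted p = 0.0467) or without early replicate 2 (0.0495), and Dbx2 from naïve mESCs to late gastruloids without naïve replicate 1 (0.0330). Dbx2 from naïve mESCs to early gastruloids also lost its call with DESeq2 (DESeq2 adjusted p = 0.0567) and without early replicate 1 (edgeR adjusted p = 0.0536), and SOX1 from RUES2-GLR to early with no low-count filter (0.0916). With no filter DBX2 was called higher in primed than in naïve H9 (edgeR adjusted p = 1.22e-03) and lower in RUES2-GLR than in primed H9 (0.0434), and Olig2 higher in late mouse gastruloids than in early ones (0.0141) or in naïve mESCs (0.0416). The cause of these shifts was not tested.

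With the adjusted p alone, and so without the fold threshold, calls over all genes rose to 13777 from 8747 (naïve to primed H9), 10710 from 5357 (H9 to RUES2-GLR), 10218 from 5413 (RUES2-GLR to early), 9519 from 4564 (human early to late), 11631 from 7012 (RUES2-GLR to late), 9900 from 4465 (naïve mESCs to EpiLCs), 9410 from 3143 (EpiLCs to early), 9445 from 3451 (naïve mESCs to early), 11415 from 5884 (mouse early to late), 11773 from 6718 (naïve mESCs to late) and 8204 from 4903 (species difference). On canonical lengths the ratio of IRX3 to PAX6 in late gastruloids was 0.871 in human and 26.7 in mouse. Same-numbered replicates did not deviate together (r from -0.0892 to 0.0684 over the comparisons), so the numbers were not taken as pairs, and with the replicate block the count of called factors was as without it in every comparison (7 for human early to late, 6 for mouse early to late). Depth limits the factors near the floor: OLIG2 and Neurog2 in gastruloids and DBX2 in the human libraries other than primed H9 replicate 2, where it had 15 counts.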
